A study of Mus musculus with 7 samples.

Results

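Type I interferon response genes were followed across nucleus classes in single-nucleus RNA libraries from the brains of 5xFAD mice. The set was given as 34 gene symbols. They comprise the receptor subunits, the transcription factors that act downstream of them, sensors of foreign nucleic acid and genes that interferon switches on. Of these, 32 occurred among the 32285 genes of the deposited matrices; Mx1 and Mx2 were not analysed here. All 7 libraries came from mice labelled 5xFAD +/-, a transgenic line that forms amyloid plaques, and no library came from mice without the transgenes. The mice were injected retro-orbitally at 4 months of age and their brains taken at 6 months. The vector was either a control AAV (3 libraries) or an ANGPT2 AAV (4 libraries). ANGPT2 encodes angiopoietin-2, which is secreted and binds TIE2 on endothelial cells, and the question was how brain cells differ when it is supplied. The labelled tissue was subcortex, thalamus and hippocampus. Each library is named here by group, sex and batch, where batch is the replicate number (1 or 2) that the labels give as batch. The controls are a male and a female of batch 1 and a male of batch 2. The ANGPT2 libraries are a male and a female of each batch. Values per library are always given in that order, controls first and batch 1 before batch 2. No label says what cells the vectors express in, nor which species' ANGPT2 sequence was used.

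Type I interferons bind a receptor of 2 chains, IFNAR1 and IFNAR2. The receptor activates STAT2, which joins IRF9 in a complex that binds the interferon-stimulated response element in the promoters of its targets. Those targets include viral RNA and DNA sensors, enzymes that degrade or trap viral RNA, and the ubiquitin-like protein ISG15 with the enzymes that attach and remove it. In brain, microglia and endothelial cells are known as responsive cell types, and an interferon-responsive state of microglia is known from amyloid models.

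The response element was visible in the members' own promoters. RefSeq promoters on GRCm38.p6, from 250 bases before to 50 after each start site, were found for 25 of the 32 members. They were searched on either strand for GAAA, any 2 bases and GAAA again, the core of the element. This core lay in a promoter of 12 members (48.0%): Bst2, Ddx58, Gbp2, Ifi207, Ifih1, Ifit1, Ifit3, Isg15, Oas1a, Rsad2, Stat2 and Trim30a. Over all 27025 genes with a promoter in the table, 3.99% had it. Among a wider list of 95 interferon pathway genes that are not members, 37 of the 80 with a promoter had it. The other motif searched, TTCNNNGAA, is the gamma-activated site, known best from type II interferon. It lay in a promoter of 7 members (28.0%), including Irf1, Ifnar1 and Ifnar2, against 9.55% of all genes. The 2 motifs can share bases. A match is a stretch of letters and does not show that a factor binds there.

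Stretches of 60 bases before the start site are shown for some members with the core that were tested in microglia (Ifi207, Oas1a, Trim30a and Stat2). Isg15 and Ifit1, textbook targets of interferon, are shown as well. Sp100, Xaf1, Herc6, Oasl2 and Rnf213 were also lower in microglia at an unadjusted p under 0.05 (edgeR), and their promoters lacked the core. Ifi204, Parp14 and Usp18, lower at that p too, had no promoter in the table. Sequences are from RefSeq (GRCm38.p6), 5′ to 3′ on the gene's strand, with every match to the core in capitals. A match on the opposite strand reads as TTTC, any 2 bases and TTTC.
Ifi207, chr1:173741816-173741875, minus strand: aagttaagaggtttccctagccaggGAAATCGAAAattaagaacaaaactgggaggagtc
Oas1a, chr5:120907526-120907585, minus strand: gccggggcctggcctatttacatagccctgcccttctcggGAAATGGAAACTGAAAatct
Trim30a, chr7:104465195-104465254, minus strand: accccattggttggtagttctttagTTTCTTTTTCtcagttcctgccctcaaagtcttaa
Stat2, chr10:128270251-128270310, plus strand: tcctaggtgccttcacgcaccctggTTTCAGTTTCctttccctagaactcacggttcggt
Isg15, chr4:156200862-156200921, minus strand: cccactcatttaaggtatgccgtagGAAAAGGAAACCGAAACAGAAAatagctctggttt
Ifit1, chr19:34640760-34640819, plus strand: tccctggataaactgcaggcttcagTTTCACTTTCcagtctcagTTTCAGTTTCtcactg
In Isg15 and Oas1a consecutive matches overlapped and ran on from one another. In Ifit1 they stood apart. The match began 41 bases before the start site in Ifi207, 36 in Trim30a and 222 in Stat2.

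The libraries held 6311 to 9630 barcodes with 25466033 to 100529717 UMIs (unique molecular identifiers, 1 per captured RNA molecule). Batch 2 was sequenced to fewer UMIs per library than batch 1. After filters and removal of called doublets 54223 nuclei were kept. The clusters that could be named gave 13 classes. Nuclei of unnamed clusters entered the whole-library values but none of the 13 classes. Before doublets were removed, 1 unnamed cluster held 1151 nuclei of the control male and 2297 of the ANGPT2 female of batch 1. Of all barcodes, 3.45% occurred in 2 or more libraries. Levels are given as CPM, the UMIs of a gene per 1000000 UMIs of its class in that library. They are not divided by gene length, so levels of different genes are not compared. Mouse Angpt2 had 3.77, 4.30 and 3.99 CPM in whole control libraries and 4.76, 3.63, 2.24 and 2.69 CPM in the ANGPT2 libraries. It was not higher in the latter, so these matrices give no check of the treatment labels. The control female of batch 1 stood apart from the other libraries. At finer clustering, an unnamed cluster took most of its oligodendrocytes. Of its 3234 excitatory neuron nuclei, 1533 (47.4%) lay in 4 clusters that drew over 90% of their nuclei from it, and no other library had such a cluster. Results are therefore also given without that library where it moves them.

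Across classes, endothelial nuclei and microglia had the highest levels of these transcripts. Summed over the 32 members, the mean of the libraries was 2035 CPM ± 625 (SD, n = 7) in endothelial nuclei and 1340 ± 403 (n = 7) in microglia. Astrocytes had 350.2 ± 44.1, oligodendrocyte precursors 348 ± 68.2 and oligodendrocytes 256 ± 44.7. Excitatory neurons had 120.2 ± 9.27 and striatal medium spiny neurons 57.6 ± 6.68. The 2 highest classes overlapped in their libraries, as did astrocytes and oligodendrocyte precursors. By mean CPM, 22 of the 32 members were highest in endothelial nuclei and 7 in microglia. The other 3 were highest in fibroblasts (Oasl2), choroid plexus (Ifi27) and mural cells (Zbp1). For Zbp1 this rank is not reliable. Its mural mean was 9.38 CPM with an SD of 24.8, against 3.91 in endothelial nuclei, and mural cells held 10957 to 168935 UMIs of all genes per library.

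**Figure D1:**
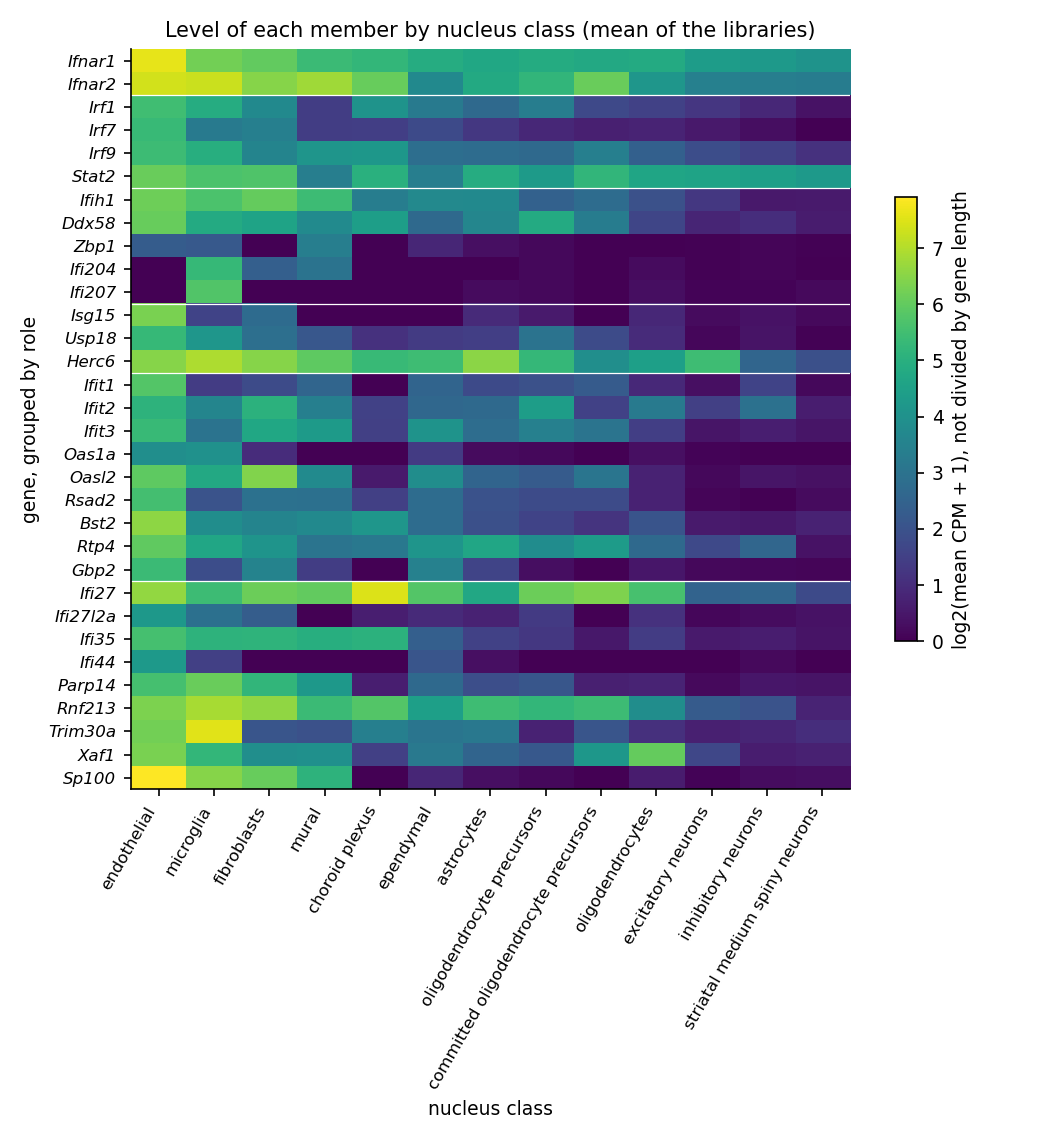
Mean level of each of the 32 members (rows, grouped by role) in each of 13 nucleus classes (columns), as log2 of the mean CPM over libraries plus 1. Endothelial nuclei and microglia hold the high values of most rows, while Ifi204 and Ifi207 stand out in microglia, Xaf1 in oligodendrocytes and endothelial nuclei, and Ifi27 in choroid plexus.

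Single members differed in where they were found. Ifi207 and Ifi204 are members of the HIN-200 family of DNA-binding proteins and neighbour each other on chromosome 1 (chr1:173723427-173741747 and chr1:173747293-173766943, GRCm38). Both had their highest mean level in microglia. Ifi207 had 52.7 CPM ± 42.0 (n = 7) there and at most 0.221 in any other class. Ifi204 had 38.6 CPM ± 27.9 in microglia, 7.11 ± 9.19 in mural cells and a mean of 4.30 in fibroblasts. No Ifi207 UMI was counted in endothelial nuclei. Sp100, a component of nuclear bodies, had 239 CPM ± 91.2 in endothelial nuclei and 86.9 ± 30.4 in microglia, against 0.506 ± 0.541 in oligodendrocytes. Isg15 had 78.0 ± 50.3 CPM in endothelial nuclei and 2.01 ± 2.45 in microglia. Xaf1, a regulator of apoptosis inhibitors, was at 78.3 ± 34.3 CPM in endothelial nuclei and 64.3 ± 8.29 in oligodendrocytes. The receptor genes were found in every class. Ifnar1 ranked first in endothelial nuclei at 195 ± 70.3 CPM and next in microglia at 73.7 ± 11.02. Ifi204 and Ifi207 belong to a cluster of closely related genes, as do Oas1a, the Ifit genes, Trim30a and Ifi27 with Ifi27l2a, so reads may have been split among copies and their values are uncertain.

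In microglia, the summed level of the 32 members was lower in every ANGPT2 library than in every control. It was 1558, 1933 and 1682 CPM in the controls and 970 CPM, 959, 922 and 1356 in the ANGPT2 libraries. The group means were 1725 ± 191 (SD, n = 3) and 1052 ± 204 (n = 4), a log2 ratio of -0.71. Within batch 1 the log2 ratio was -0.86 and within batch 2, which has 1 control, it was -0.56. Leaving out the control female of batch 1 gave -0.62. Leaving out the highest ANGPT2 library, the female of batch 2, gave -0.86. This sum used every member whatever its count. It has no test, because the set was chosen with results of these data known.

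**Figure D2:**
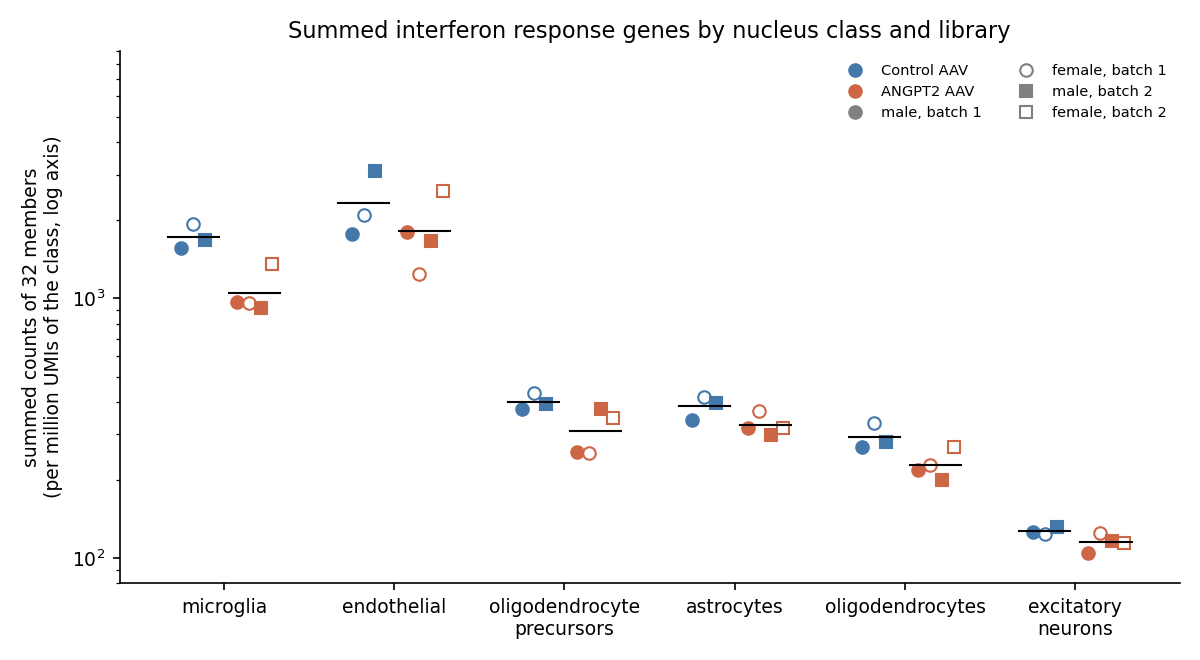
Summed CPM of the 32 members (log axis) in 6 nucleus classes, 1 point per library, coloured by group, with sex and batch by symbol and the group mean as a line. Only in microglia, of the 6 classes drawn, do all 4 ANGPT2 libraries (922 to 1356 CPM) lie below all 3 controls (1558 to 1933 CPM). In oligodendrocytes 1 ANGPT2 library (266.89 CPM) lies just above the lowest control (266.75 CPM). The same holds in oligodendrocyte precursors (376.54 against 374.32 CPM) and excitatory neurons (124.58 against 124.24 CPM). Mural cells and choroid plexus, not drawn, also separate, the latter with 2 ANGPT2 libraries (461 and 459 CPM against 532 to 675 CPM).

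Microglia comprised 354, 421 and 504 nuclei in the controls and 244, 326, 219 and 591 in the ANGPT2 libraries, with 262343 to 1032953 UMIs per library. All 10 of their own markers were detected in each library. In the edgeR quasi-likelihood test over 8960 genes, no member passed an adjusted p of 0.05, and 0% of all genes did. Of the 21 members with enough counts to be tested, 21 had a lower fitted level in the ANGPT2 libraries, with a median log2 change of -0.62 against 0.01 for all genes tested. At an unadjusted p under 0.05, 13 were lower and none higher, where 2.17% of all genes tested were lower at that p. Leaving out 1 library changed these 13 to between 6 and 14, with 7 without the control female, 8 without the ANGPT2 male and 6 without the ANGPT2 female of batch 1. The filter kept a gene when it had enough counts in as few libraries as the smaller group holds, so members could enter through the controls alone. With a filter that ignores the groups, 28 members were tested, all 28 were lower and the median was -0.80. DESeq2 also called none, and put 12 members under an unadjusted p of 0.05, where 80 of 8960 genes were lower at that p.

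In 6 of the 21 (Ifi207, Stat2, Ddx58, Trim30a, Sp100 and Ifnar2) all 4 ANGPT2 libraries lay below all 3 controls. This held for 3.49% of all genes tested. By log2 CPM, 21 of the 21 were lower in batch 1 and 18 in batch 2, the exceptions there being Ifi27, Rtp4 and Ifi35. With the replicate block, which compares groups within batches, again no member passed and the median log2 change was -0.77. With sex as a covariate Ifi207 passed (adjusted p = 0.00546, edgeR), and with both terms it passed as well (0.00629). In these fits 3 and 9 of the 8960 genes passed. Its adjusted p ranged from 1.85e-06 with no filter, where 49 of 19891 genes passed, to 1.00 over the 17 alternatives.

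**Figure D3:**
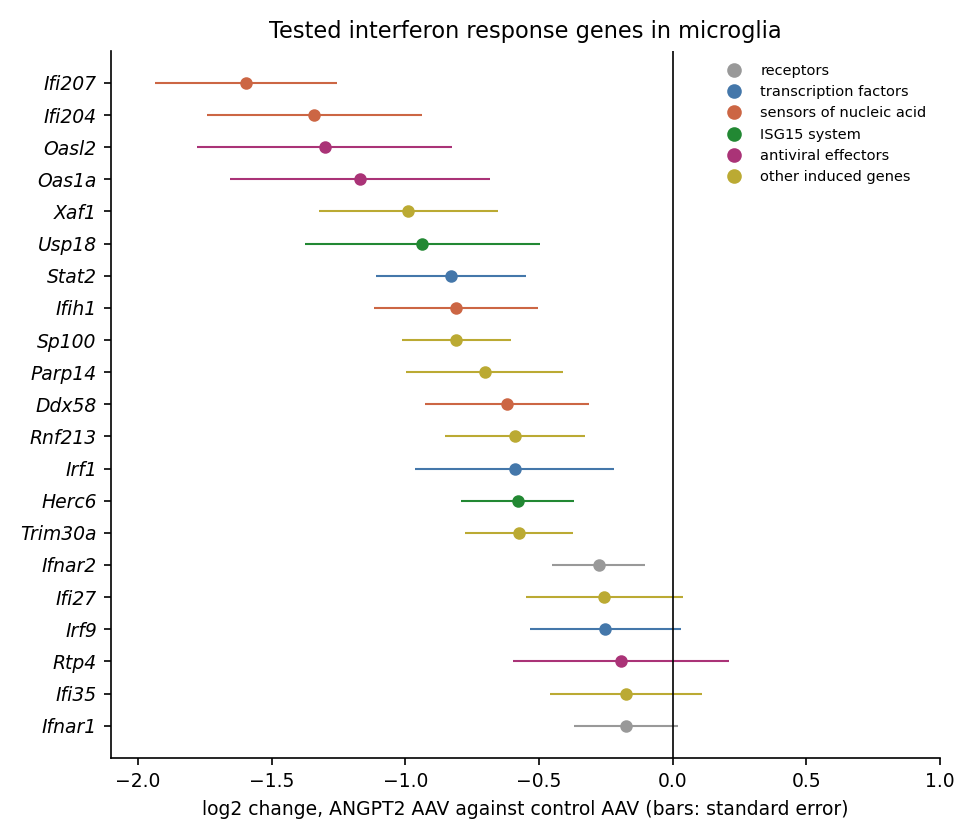
Log2 change of the 21 members tested in microglia, ANGPT2 AAV against control AAV, coloured by role, with standard errors derived from the F statistic. All 21 points lie left of 0, from -1.60 for Ifi207 to -0.17 for Ifnar1, and no change passed an adjusted p of 0.05.

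The sensors of nucleic acid included the member with the smallest p. Ifi207 had 72.9, 136 and 54.0 CPM in control microglia and 25.6, 33.3, 7.62 and 40.1 in ANGPT2 microglia. The groups did not overlap, although the control female of batch 1 was far above the other controls. Its log2 change was -1.60 (SE 0.34, adjusted p = 0.568, edgeR). Ifi204, its neighbour, had 40.8, 90.0 and 49.3 against 23.7, 12.8, 7.62 and 45.6 CPM (log2 change -1.34, SE 0.40). Here the ANGPT2 female of batch 2 reached the control range. Ifih1, which encodes the RNA sensor MDA5, had 42.8, 98.7 and 61.1 CPM against 38.4, 30.8, 26.7 and 52.9 (-0.81, SE 0.31). Only that same ANGPT2 female overlapped the controls. Ddx58, which encodes the RNA sensor RIG-I, had 33.0, 40.7 and 32.9 CPM against 14.6, 24.4, 15.2 and 32.8 (-0.62, SE 0.31). These groups were separated by the margin between 32.9 and 32.8 CPM. Zbp1, a sensor of left-handed nucleic acid, was under the filter, with 19 UMIs in control and 3 in ANGPT2 microglia. The summed CPM of the 5 sensors had a log2 ratio of -1.23, and all 4 ANGPT2 libraries were below every control.

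Of the transcription factors, Stat2 had 54.4, 91.0 and 56.4 CPM in controls and 40.2, 33.3, 19.1 and 51.0 in ANGPT2 microglia, with no overlap. Its log2 change was -0.83 (SE 0.28). Irf9, its partner in the complex, had 38.9, 24.2 and 39.9 CPM against 31.1, 28.2, 19.1 and 27.3 (-0.25, SE 0.28), and 3 ANGPT2 libraries lay above the lowest control. Irf1, which responds to both interferon types, had 25.3, 38.7 and 37.6 CPM against 14.6, 12.8, 45.7 and 25.5 (-0.59, SE 0.37). The ANGPT2 male of batch 2 had the highest Irf1 level of the 7. Irf7, which amplifies the response, was under the filter with 40 UMIs in control and 10 in ANGPT2 microglia.

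The receptor genes come before all of these in the pathway. Ifnar1 had 87.4, 74.5 and 79.9 CPM in controls and 78.6, 78.2, 61.0 and 56.5 in ANGPT2 microglia (-0.17, SE 0.20), with overlap. Ifnar2 had 154, 166 and 202 CPM against 142, 117, 149 and 148 (-0.28, SE 0.17), with no overlap but a narrow gap. Neither had an unadjusted p under 0.05.

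In the ISG15 system, Herc6, an enzyme that attaches ISG15 in mice, had 155, 185 and 115 CPM in controls and 132, 79.5, 83.9 and 106 in ANGPT2 microglia (-0.58, SE 0.21). The ANGPT2 male of batch 1 lay above the control male of batch 2. Usp18, which removes ISG15 and dampens the receptor, had 28.2, 18.4 and 21.1 CPM against 5.48, 6.41, 19.1 and 20.1 (-0.94, SE 0.44). The 2 ANGPT2 libraries of batch 1 were low, and those of batch 2 lay among the controls. Isg15 itself had 13 UMIs in all microglia, 10 of them in controls.

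Antiviral effectors were scarce in microglia, and 3 of the 9 analysed passed the filter. Oasl2, of the oligoadenylate synthetase family that triggers RNA degradation, had 44.7, 43.6 and 32.9 CPM in controls and 10.96, 3.85, 7.62 and 41.9 in ANGPT2 microglia (-1.30, SE 0.48). Oas1a, of the same family, had 17.5, 32.9 and 18.8 CPM against 7.31, 8.98, 0 and 20.1 (-1.17, SE 0.49). In both genes the ANGPT2 female of batch 2 lay among the controls, with the other 3 ANGPT2 libraries below. Without that female, Oasl2 passed, with an adjusted p of 0.0474 and a log2 change of -2.52. Rtp4, a chaperone of receptors, had 30.1, 33.9 and 14.1 CPM against 23.7, 11.5, 15.2 and 43.8 (-0.19, SE 0.40), with the groups interleaved. The other 6 had few UMIs, in control and ANGPT2 microglia respectively: 8 and 2 for Ifit1, 43 and 16 for Ifit2, 31 and 8 for Ifit3, 18 and 1 for Rsad2, 45 and 26 for Bst2, and 11 and 2 for Gbp2. Control microglia had 2487848 UMIs of all genes and ANGPT2 microglia 2138019.

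Among the other induced genes, Sp100 had 98.1, 118 and 134 CPM in controls and 58.5, 56.4, 68.6 and 74.7 in ANGPT2 microglia. The gap between the groups was wider than the spread within the ANGPT2 group but narrower than the spread within the controls. Its log2 change was -0.81 (SE 0.20, adjusted p = 0.902, edgeR), and ranged from -0.94 to -0.71 over the 17 alternatives. Trim30a, a ubiquitin ligase of the TRIM family, had 230, 231 and 237 CPM against 100, 142, 160 and 206 (-0.57, SE 0.20). The controls were tightly grouped and all 4 ANGPT2 libraries were below them. Xaf1 had 34.01, 54.2 and 70.5 CPM against 38.4, 17.96, 11.4 and 27.3 (-0.99, SE 0.33). Parp14, which adds ADP-ribose to proteins, had 77.7, 83.3 and 110.4 CPM against 31.1, 51.3, 30.5 and 89.3 (-0.70, SE 0.29). Rnf213, a large ubiquitin ligase, had 105, 151 and 186 CPM against 71.2, 74.4, 76.2 and 146 (-0.59, SE 0.26). In Parp14 and Rnf213 the ANGPT2 female of batch 2 lay within the control range and in Xaf1 the male of batch 1 did, while the other ANGPT2 libraries lay below.

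Ifi27 had 59.3, 56.2 and 21.1 CPM in control microglia and 40.2, 51.3, 34.3 and 29.2 in ANGPT2 microglia (-0.25, SE 0.29). Ifi35 had 40.8, 32.9 and 32.9 CPM against 20.1, 37.2, 45.7 and 25.5 (-0.17, SE 0.29). In both the groups overlapped. Ifi27l2a had 28 UMIs in control and 6 in ANGPT2 microglia, and Ifi44 had 8 and 3. The 11 members under the filter held 261 UMIs in control and 80 in ANGPT2 microglia together.

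**Figure D4:**
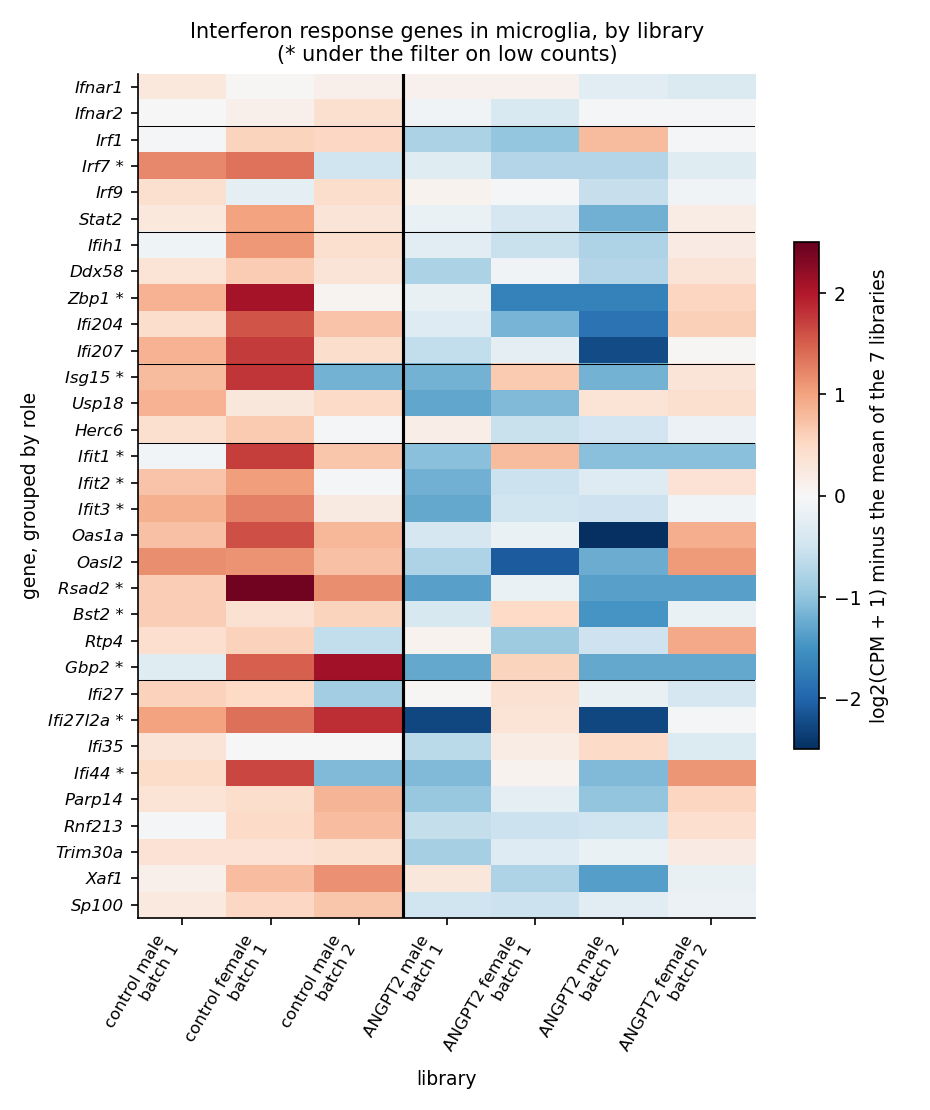
Level of each of the 32 members (rows, by role) in microglia of each of the 7 libraries (columns), as log2(CPM + 1) minus the gene's mean over the libraries; an asterisk marks the 11 members under the filter. Most members are above their mean in the 3 controls (left of the line) and below it in the ANGPT2 libraries, with the ANGPT2 female of batch 2 nearest to the controls in Oasl2, Oas1a and Rnf213.

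The effect was also compared between the batches directly. In the edgeR fit with a batch by treatment term, no member passed; 1 of 8960 genes (0.0112%) did. The difference, batch 2 minus batch 1, had an unadjusted p under 0.05 for Oasl2 (2.58, SE 0.87), Rtp4 (2.23, SE 0.83) and Usp18 (1.89, SE 0.80), where 6.9% of all genes had. For these genes the ANGPT2 libraries of batch 1 were lower relative to their controls than those of batch 2. The same direction held for most members: of 21 tested, 4 had a negative difference. The median difference was 0.63 for members and 0.02 for all genes tested, with 1 control in batch 2. The 6 tested members with the response element core had log2 changes of -1.60 to -0.57. The 10 tested members whose promoters lacked it had -1.30 to -0.17.

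Shares of nuclei were compared as well. The 30 induced members, all but the receptors, were counted per nucleus after thinning each nucleus to 500 UMIs, which no microglial nucleus fell short of. At least 2 different induced members were seen in 11.02%, 17.3% and 13.5% of control microglia and in 4.10%, 6.13%, 5.48% and 9.98% of ANGPT2 microglia. The groups did not overlap. The means were 14.0% ± 3.19 (SD, n = 3) and 6.42% ± 2.52 (n = 4). At least 1 was seen in 40.1%, 46.3% and 41.9% against 28.3%, 28.5%, 25.1% and 34.2%. Unthinned, the shares with at least 2 were 59.3%, 67.9% and 26.6% against 31.6%, 41.7%, 15.5% and 21.7%. These unthinned shares overlap, with batch 2 at fewer UMIs per nucleus. Thinned to 1000 UMIs, which 99 to 414 nuclei per library reached, they were 24.9%, 38.2% and 35.4% against 11.3%, 16.1%, 12.6% and 27.8%, and the ANGPT2 female of batch 2 lay above the lowest control. Oligodendrocytes, thinned alike, had at least 2 in 0.184% to 1.14% of nuclei per library and excitatory neurons in 0% to 0.138%. All were below every microglial share. Control and ANGPT2 means were 0.810% and 0.334% in oligodendrocytes (2 to 14 nuclei per library) and 0.0681% and 0.0731% in excitatory neurons. The oligodendrocyte log2 ratio was -1.28, against -1.12 in microglia. At 1000 UMIs all 4 ANGPT2 oligodendrocyte shares lay below every control. So did those of oligodendrocyte precursors with at least 1 member at 500 UMIs. A lower share was therefore not particular to microglia. Median depths before thinning were 810 to 2795 UMIs per microglial nucleus. Leaving out the 5% of microglia with the most member UMIs gave 978, 1269 and 1096 CPM of induced members in controls and 552, 639, 540.2 and 825 in ANGPT2 libraries. Single nuclei with up to 22 different induced members occurred in controls, and with up to 15 in ANGPT2 libraries.

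**Figure D5:**
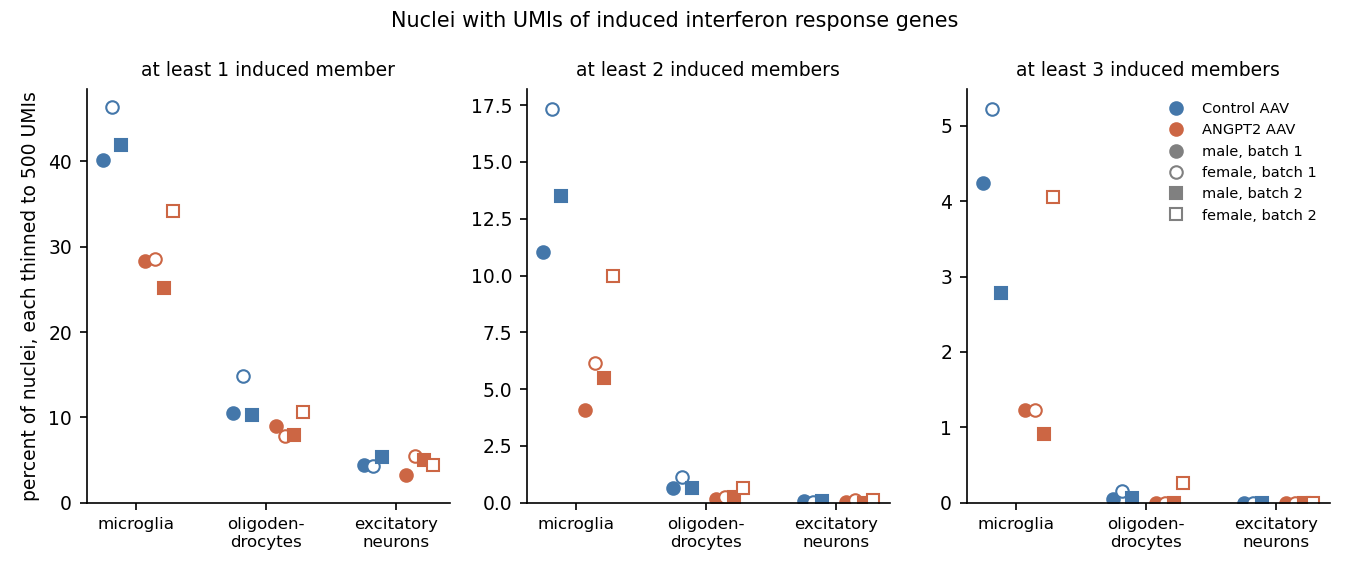
Percent of nuclei with UMIs of at least 1, 2 or 3 of the 30 induced members, after thinning each nucleus to 500 UMIs, in microglia, oligodendrocytes and excitatory neurons, 1 point per library. For at least 1 and at least 2 members, all ANGPT2 microglia values lie below all control values; for at least 3 the ANGPT2 female of batch 2 (4.06%) lies among the controls (2.78% to 5.23%).

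Markers of other immune cells in the microglia were examined beside these values. Lymphocyte markers (13 genes) summed to 173, 77.5 and 183 CPM in control and 221, 173, 339 and 213 CPM in ANGPT2 microglia. Of the 13, 2, 5 and 7 were at 0 in the controls and 10, 10, 8 and 9 in the ANGPT2 libraries. Themis and Gzmk were detected in every control and in no ANGPT2 library, and Cd8a was at 0 in 6 of the 7 libraries. The summed level and the number of markers detected thus went opposite ways, and a difference in lymphocytes was not tested. Border macrophage markers (8 genes) summed to 86.9 to 154 CPM in controls and 120 to 271 in ANGPT2 libraries, with 2 to 5 at 0. Without nuclei holding 2 or more lymphocyte markers, the log2 ratio of the summed level was -0.72. A separate cluster mixed border macrophage and lymphocyte markers. It held 24, 23 and 3 nuclei in the controls and 6, 9, 2 and 6 in the ANGPT2 libraries. Its summed member level was 2458 and 2125 CPM in the 2 controls with 10 or more of these nuclei, and it entered no microglial value.

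The other genes of the pathway were read the same way. Of 95 listed, 92 were in the files and 49 were tested in microglia: none passed, 43 were lower and 6 higher, with a median log2 change of -0.35. Of all 8960 genes tested 49.0% were lower, and their median was 0.01. At an unadjusted p under 0.05, 13 of the 49 were lower and none higher, where 2.17% of all genes were lower. In 8 of the 49 all ANGPT2 libraries lay below every control, as for 3.49% of all genes. With no filter, 4 of 81 passed, all lower: Slfn9, Slfn8, Ifi213 and Iigp1, named here after their values were seen. In that fit 49 of all 19891 genes passed, 38 of them lower. Iigp1 was under the filter, with 35 UMIs in control and 1 in ANGPT2 microglia. In Slfn9 the fitted log2 difference was -1.94 in the filtered fit (SE 0.51), where its adjusted p (edgeR) was 0.902, against 0.00138 with no filter. No other alternative called any of these pathway genes. The 10 of these genes with the highest microglial levels were Irf2, Tlr7, Jak1, Ifngr1, Ifngr2, Apobec3, Epsti1, Irf8, Irf5 and Tbk1. None of these 10 had an unadjusted p under 0.05. Jak1, the kinase bound to IFNAR2, had a log2 change of 0.11 (SE 0.16), and the type II receptor gene Ifngr1 had -0.07 (SE 0.16). Tbk1, a kinase downstream of the sensors, had the most negative at -0.35 (SE 0.18). Transcripts of the interferons themselves were nearly undetected: over all kept nuclei Ifnb1 had 0 UMIs, Ifna4 had 1 and Ifna2 had 5, all 5 in ANGPT2 libraries. Ifne had 9, of which 5 were in controls, and Ifnk and the type II interferon gene Ifng had 2 each, split evenly between the groups.

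In oligodendrocytes the summed level was 267, 331 and 281 CPM in controls and 218, 229, 199 and 266.9 in ANGPT2 libraries. The ANGPT2 female of batch 2 lay just above the lowest control. The log2 ratio was -0.36, and -0.19 at the finer clustering. None of 12 tested members passed (0% of 12362 genes did), and 11 were lower. The median was -0.26, which became -0.04 without the control female of batch 1. Ifi27, a mitochondrial protein gene induced by interferon, and Stat2 were lower at an unadjusted p under 0.05, where 1.65% of all genes were. Stat2 had 27.1, 25.6 and 34.7 CPM against 23.4, 21.9, 18.5 and 18.02 (-0.40, SE 0.17), and was the member whose groups did not overlap, as for 3.49% of genes.

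The difference of the effect between microglia and oligodendrocytes passed for no gene of 11609 (0%). It had an unadjusted p under 0.05 for Xaf1 (-0.86, SE 0.31), Ifit2 (-1.28, SE 0.54) and Rnf213 (-0.51, SE 0.25) among 23 members, where 4.53% of all genes had. Ifit2 was under the filter in microglia. The direction was mixed: 13 of the 23 had a negative difference, with a median of -0.24 against 0.02 for all genes. Ifi207 (1.23, SE 0.79) and Usp18 (1.13, SE 0.89) were among those with a positive difference. Against astrocytes, none of 11343 genes (0%) passed. Rnf213 (-0.75, SE 0.27) and Stat2 (-0.80, SE 0.35) had an unadjusted p under 0.05, where 4.74% of genes had. Here 19 of 23 members had a negative difference, with a median of -0.54 against -0.01 for all genes. No member passed either test, which does not show that the effects were alike.

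Ifi27 had its highest mean level in choroid plexus, and its smallest p in oligodendrocyte precursors. There it had 104, 103 and 76.5 CPM in controls and 58.0, 51.5, 54.8 and 38.5 in ANGPT2 libraries. The groups did not overlap, as for 4.16% of genes tested. Its log2 change was -0.88 (SE 0.21, adjusted p = 0.739, edgeR), and ranged from -0.97 to -0.81 over the alternatives. It was the 1 member of 9 tested that was lower at an unadjusted p under 0.05 (2.42% of 8319 genes were, and 0% passed). In oligodendrocytes Ifi27 had 62.1, 63.6 and 44.6 CPM against 36.9, 44.576, 31.2 and 47.1 (-0.47, SE 0.19), with 1 ANGPT2 library above the lowest control. In committed oligodendrocyte precursors its log2 change was -0.70 (SE 0.32), and in astrocytes -0.50 (SE 0.26).

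Endothelial nuclei, 45 to 154 per library, carried the highest summed level but no separation. It was 1773, 2093 and 3100 CPM in controls and 1797, 1239, 1657 and 2586 in ANGPT2 libraries. The spread within groups was larger than the difference of the means (2322 ± 693, n = 3, and 1820 ± 563, n = 4). Of 12 tested members none passed (0% of 3234 genes did), and 10 had lower fitted levels. Bst2, which encodes tetherin, an anchor of budding virus particles, had 46.9, 219.9 and 172 CPM against 24.8, 36.0, 18.01 and 130 (-1.37, SE 0.59, with an unadjusted p under 0.05, where 1.14% of genes were lower). It passed in 1 alternative only, the replicate block and sex together (adjusted p = 0.0251, edgeR). The share of all endothelial genes passing in that fit is not given here, so this call cannot be set against it. Herc6 was the member whose groups did not overlap, with 150.1, 89.6 and 103 CPM against 74.5, 57.6, 54.0 and 84.3 (2.35% of genes did not). Bst2 stood out again in excitatory neurons, at 0.548, 1.39 and 0.572 CPM against 0.196, 0.212, 0.138 and 0.340 (-1.94, SE 0.51, adjusted p = 0.882, edgeR). The highest of these values, 1.39 CPM, was that of the control female of batch 1, and without that library the log2 change was -1.19. In these neurons 2.42% of 17553 genes were lower at an unadjusted p under 0.05 and 0% passed. Bst2, Ifi27 and Xaf1 did not overlap between the groups in those neurons, as for 3.71% of genes. Astrocytes had 340, 417 and 395 CPM of the 32 members against 316, 367, 299 and 318, and no tested member of 9 had an unadjusted p under 0.05. In mural cells no member was tested. All 4 ANGPT2 libraries there were below the controls, at 574, 702 and 919 CPM against 525, 468, 482 and 456. These levels rest on 19 to 95 nuclei with 10957 to 168935 UMIs of all genes per library. Of the 945 genes tested in mural cells, 2.22% lay below every control in all ANGPT2 libraries.

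Whole libraries add all kept nuclei, also those of unnamed clusters. Their summed level was 164, 182 and 171 CPM in controls and 129, 153, 117 and 154 in ANGPT2 libraries, with no overlap. Fewer cells of a type and less RNA per cell cannot be told apart in such sums. Microglia made up 4.22%, 5.86% and 5.68% of kept nuclei in the controls and 3.41%, 3.69%, 3.67% and 7.58% in the ANGPT2 libraries, and gave 7.02% to 17.4% of a library's member UMIs. Striatal medium spiny neurons, the class with the lowest summed level, made up 0.119%, 1.57% and 16.8% against 2.57%, 5.02%, 31.0% and 7.08%. They held 34.1% of the UMIs of the ANGPT2 male of batch 2, the library at 117 CPM. How far such shares move the sums was not tested. Of 30 tested members none passed (0% of 19987 genes did), 29 were lower, and the median was -0.42. Ifi207 (-1.93, SE 0.58), Irf7 (-1.41, SE 0.44), Ifi204 (-1.65, SE 0.63) and Usp18 (-0.97, SE 0.40) were lower at an unadjusted p under 0.05, where 1.57% of genes were. Ifi207, Irf7 and Irf9 did not overlap between the groups, as for 3.2% of genes.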

How the data were processed

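Each library is a 10x Chromium single-nucleus RNA library with a deposited matrix of raw UMI counts per gene and barcode, not normalized. The authors made these counts with Cell Ranger 6.1.2 on mm10 (GRCm38), per the submitters' processing notes. Barcodes with at least 300 genes and under 5% mitochondrial UMIs were kept (58169 of 58286), and 3946 doublets, called from simulated doublets, were removed. Nuclei were clustered (Leiden, 40 components, 15 neighbours, resolution 1, 69 clusters) without the members, other pathway genes, sex-linked and mitochondrial genes, and named from markers of 17 cell types. Clusters split by batch, so microglia were 1 cluster mostly of batch 1 and 1 mostly of batch 2.

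UMIs were summed per library and class (10 or more nuclei) and tested with edgeR 4.0.16 (quasi-likelihood, TMM scaling, filterByExpr with a minimum count of 10 and total of 15), with Benjamini-Hochberg adjustment over all genes of a class and a threshold of 0.05; fold changes are log2. Each SE is the size of the edgeR log2 change divided by the square root of its F statistic, not a separate estimate. DESeq2 1.42.0 was an alternative. Scripts were tested on simulated data. The members and gene lists were chosen with earlier results of these data known. Genes are named by role; those passing the filter in microglia are given in every library. Of the other pathway genes, the 10 with the highest mean microglial CPM are named; 1 item of the list is not reported here. The replicate block groups libraries by batch, the number that the labels give, and does not pair single libraries. Median UMIs per microglial nucleus were 2184 to 2795 in batch 1 and 810 to 1158 in batch 2. The labels do not say whether libraries of a group share litters; p-values measure the spread between these libraries. Counting error only is covered by counts of UMIs. Gene positions came from GENCODE M21 by Ensembl identifier and promoters from RefSeq, both on GRCm38. Python 3.11.15 and R 4.3.3 were used.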

Additional observations from a re-analysis of the deposited data

Results flagged for a closer look

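Among 28 sets of 4 ANGPT2 values examined (21 members in microglia and the summed level in 7 classes or whole libraries), 2 had a library far from the other 3, and chance alone gives about 1 in 20. Both were the ANGPT2 female of batch 2 in microglia. Rnf213 had 145.8 CPM there, against 71.2 to 76.2 in the other 3 ANGPT2 libraries. The summed level of the 32 members was 1356 CPM there, against 922 to 970. Groups of 3 controls were not examined in this way.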

How the results depend on the processing

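Counts of members past the threshold stayed at 0 in every class and alternative, with these exceptions. In microglia, 3 passed with no filter (Ifi207, Ifi204 and Oasl2, among 49 of 19891 genes), 1 with sex as a covariate (among 3 of 8960), 1 with the replicate block and sex together (among 9 of 8960, both Ifi207), and 0 to 1 when 1 library was left out (Oasl2, among 2 of 9444, without the ANGPT2 female of batch 2). In endothelial nuclei, 1 (Bst2) passed with the replicate block and sex, where the number of all genes passing is not given here. With the replicate block alone no call changed. The 13 members lower at an unadjusted p under 0.05 in microglia became 21 with no filter, where 525 of 19891 genes were lower at that p. That fit also holds the members with few UMIs. The 13 became 6 to 14 when 1 library was left out, where 165 of 9319 to 306 of 9937 genes were lower. They fell to 7 without the control female, 8 without the ANGPT2 male and 6 without the ANGPT2 female of batch 1. The microglial log2 ratio of the summed level was -1.04 as a mean of log2(CPM + 1) and -0.86 to -0.62 with 1 library left out. For the 30 induced members alone it was -0.80 with all nuclei and -0.80 without the 5% with the most member UMIs (chosen after seeing the data). With 1 library left out it ranged from -0.45 to -0.26 in oligodendrocytes, -0.57 to -0.09 in endothelial nuclei, -0.32 to -0.18 in astrocytes, -0.19 to -0.11 in excitatory neurons and -0.37 to -0.24 in whole libraries. It was -0.19 in oligodendrocytes at resolution 2 and -0.34 in excitatory neurons without the 3 most abundant members. For microglia with at least 2 induced members the log2 ratio of the shares was -1.12, -0.56 for at least 1 member and -1.41 to -0.93 with 1 library left out. Of 357 values of single members in microglia under alternatives, 3 changed sign: Rtp4 to 0.03 without the control female and 0.13 without the ANGPT2 female of batch 1 (range -0.74 to 0.13 with 1 library left out), and Ifi35 to 0.0051 without the ANGPT2 male of batch 1 (range -0.31 to 0.0051). The cause of these changes was not tested. The interaction tests were run in 1 setting. Depth limits the 11 members with 10 to 71 UMIs in all microglia.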
